A study of Mus musculus with 9 samples.

Results

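The genes described here are the Wnt ligands, their Frizzled, Lrp and Lgr receptors, the R-spondins, the secreted antagonists and 3 transcriptional readouts of the pathway, measured in the mouse iris by bulk RNA-Seq. They were taken by gene symbol from the deposited count files as every Wnt, Fzd, Sfrp, Dkk, Rspo and Lgr4 to Lgr6 gene listed, together with Wif1, Frzb, Lrp5, Lrp6, Axin2, Lef1, Tcf7 and Notum. This gave 48 of the 18349 genes listed: 15 ligands, 10 Frizzled receptors, 2 co-receptors, 4 R-spondins, 3 Lgr receptors, 11 antagonists and 3 readouts. Of these, 43 passed the filter on low counts and were tested. Dkk4, Fzd10, Wnt1, Wnt7a and Wnt9b were not tested.

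Wnt ligands are lipid-modified secreted proteins that bind Frizzled receptors, and with Lrp5 or Lrp6 they stabilise β-catenin, which then acts with TCF/LEF factors on target genes such as Axin2. R-spondins bind Lgr4, Lgr5 and Lgr6 and keep Frizzled receptors at the cell surface, whereas Wif1, the Sfrp proteins and Frzb bind the ligands, Dkk1 and Dkk2 bind the Lrp co-receptors and Notum removes the lipid from the ligands. In the eye the pathway is known for patterning the anterior segment, where the iris stroma, its muscles and its pigmented epithelium form, and Fzd4 is known for its part in ocular blood vessel growth.

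The study compared irises after a corneal alkali injury with sham-treated irises, and injured irises of mice meant to lose VEGFR3 in lymphatic endothelial cells (LECs) with injured irises of their littermates. All mice were C57BL/6J and carried floxed VEGFR3 (VEGFR3fl/fl), and all were given tamoxifen at 80 mg/kg from day 13 to day 17. Filter paper with 0.5 μl of 1 M NaOH was laid on the cornea for 60 s at 6 weeks of age in the injured VEGFR3fl/fl and injured VEGFR3iLECko groups, and PBS was used in the Sham VEGFR3fl/fl group. The VEGFR3iLECko mice also carried Prox1CreERT2, a tamoxifen-inducible Cre driven by Prox1, so that deletion could occur in any cell using that promoter. Irises were trimmed and collected at 10 weeks of age, and each of the 3 libraries in a group pooled 3 irises, so p-values measure the spread between pools. For replicates 2 and 3 of the VEGFR3iLECko group the genotype tag gave other VEGFR numbers, and title and description were followed.

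Total counts per library lay between 16617187 and 18306359. Flt4, the gene of VEGFR3, stood at 282, 237 and 265 counts in the Sham libraries, 277, 353 and 400 in those of injured VEGFR3fl/fl mice and 478, 370 and 476 in those labelled VEGFR3iLECko. Flt4 was not lower in the libraries labelled VEGFR3iLECko, and whole-iris RNA does not single out LECs. Against Sham it was higher there, with a log2 fold change of 0.80 (edgeR quasi-likelihood test, adjusted p = 0.00161). Against injured VEGFR3fl/fl its log2 fold change was 0.33 (same test, adjusted p = 0.200). Marker genes of pigment cells summed to 27656 to 29613 CPM (counts scaled by the TMM-normalized library size) in Sham, 3371 to 5810 in injured VEGFR3fl/fl and 5053 to 7113 in injured VEGFR3iLECko libraries, so the labelled tissue expressed its defining markers in every library. Y-linked genes summed to 0.804 CPM in injured VEGFR3fl/fl replicate 3 and to 0.736 to 1.11 CPM in the VEGFR3iLECko libraries, against 51.1 to 167 CPM in the other libraries, so between the injured groups the Y-linked level departs from the genotype in 1 library only. Bulk RNA cannot tell fewer cells of a type from less RNA per cell, which holds for every change below.

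After injury, most of the genes that changed fell. All 3 readouts fell, led by Lef1 and Axin2, and so did the ligands Wnt10a and Wnt6 and the antagonists Wif1 and Notum, each to a small part of its Sham level. The antagonists Sfrp4, Sfrp2 and Frzb, the receptor Lgr6 and the ligand Wnt10b rose. A differentially expressed gene (DEG) here had an adjusted p under 0.05 in edgeR's quasi-likelihood test and a change of more than 1.5-fold. Between injured VEGFR3fl/fl and Sham irises, 9 of the 43 members tested were upregulated DEGs and 17 were downregulated DEGs, and 17 were neither. Over all 15010 genes tested the background was 22.1% upregulated and 17.5% downregulated, so the share of members upregulated (20.9%) lay near the background and the share downregulated (39.5%) lay above it. The median log2 fold change of the 43 members was -0.36, beside 0.010 over all genes tested.

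**Figure D1:**
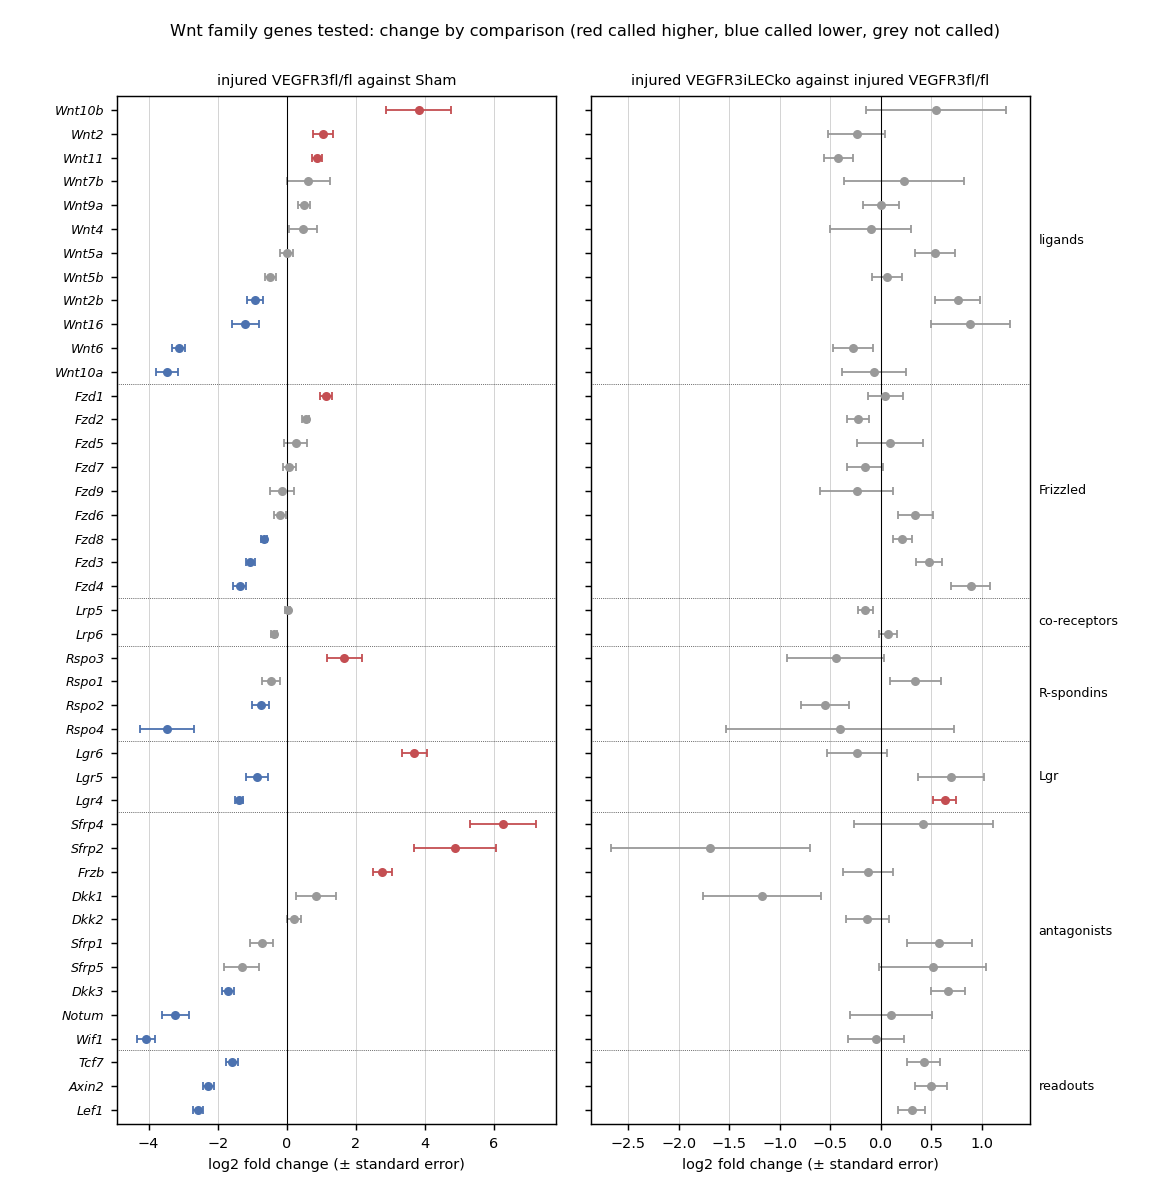
Log2 fold change (x axis, ± standard error) of each of the 43 genes tested, sorted by role and size, for injured VEGFR3fl/fl against Sham (left) and injured VEGFR3iLECko against injured VEGFR3fl/fl (right). The left panel runs from Sfrp4 at 6.26 down to Wif1 at -4.07 with 26 coloured genes, and in the right panel, on a narrower scale, Lgr4 at 0.63 is the single coloured gene.

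Every injured VEGFR3fl/fl library was below every Sham library for 21 of the 43 members and above for 9. Over all genes tested, 32.4% lay fully below and 33.9% fully above. In the ligands 3 were upregulated DEGs, 4 were downregulated DEGs and 5 were neither. The Frizzled receptors gave 1, 3 and 5 in the same order, the co-receptors 0, 0 and 2, the R-spondins 1, 2 and 1, the Lgr receptors 1, 2 and 0, the antagonists 3, 3 and 4 and the readouts 0, 3 and 0.

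Among the ligands, Wnt10a and Wnt6 fell furthest. They are neighbours on chromosome 1, at chr1:74792019-74804176 and chr1:74754342-74785322 in GRCm38.p6, with 6696 bases and no other whole gene between them, and both are known as activators of β-catenin signalling. Wnt10a had 1675, 2225 and 1509 counts in the libraries of Sham replicates 1, 2 and 3, 194, 112 and 157 in injured VEGFR3fl/fl and 177, 86 and 188 in injured VEGFR3iLECko libraries. The injured libraries of both genotypes lay far below Sham, and the log2 fold change from Sham to injured VEGFR3fl/fl was -3.47 (standard error 0.31, edgeR adjusted p = 1.64e-05). Wnt6 had 700, 795 and 598 counts in Sham, 80, 83 and 64 in injured VEGFR3fl/fl and 73, 49 and 70 in injured VEGFR3iLECko libraries. Its log2 fold change was -3.13 (standard error 0.19, edgeR adjusted p = 1.53e-06), again with no overlap of either injured group with Sham. The 250 bases before a RefSeq start of Wnt6 are shown as the neighbourhood of one of the pair that fell together (chr1:74771642-74771891, plus strand, GRCm38.p6), a stretch inside the gene's annotated span whose 300-base window, from 250 bases before to 50 after the start, had 76.7% G and C and 31 CpG.
Wnt6: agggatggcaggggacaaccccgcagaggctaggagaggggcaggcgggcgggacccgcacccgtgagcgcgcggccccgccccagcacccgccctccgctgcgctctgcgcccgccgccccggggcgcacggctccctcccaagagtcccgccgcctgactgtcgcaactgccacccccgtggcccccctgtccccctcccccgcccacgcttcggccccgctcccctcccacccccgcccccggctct

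Wnt16 and Wnt2b fell less. Wnt16 had 864, 727 and 742 counts in Sham, 111, 403 and 457 in injured VEGFR3fl/fl and 473, 634 and 715 in injured VEGFR3iLECko libraries. Its lowest value was that of injured VEGFR3fl/fl replicate 1, and the log2 fold change of -1.21 (standard error 0.39, edgeR adjusted p = 0.0238) missed the threshold without Sham replicate 1 (adjusted p = 0.0662) or Sham replicate 3 (adjusted p = 0.0505) (all alternatives gave 0.0022 to 0.0662). Wnt2b, a ligand known from the rim of the developing retina, had 330, 238 and 283 counts in Sham, 99, 174 and 157 in injured VEGFR3fl/fl and 244, 301 and 199 in injured VEGFR3iLECko libraries. It fell by 0.92 on the log2 scale (standard error 0.22, edgeR adjusted p = 0.0057), and the injured VEGFR3iLECko libraries overlapped with Sham.

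The ligands that rose were Wnt10b, Wnt2 and Wnt11. Wnt10b, which lies next to Wnt1 on chromosome 15 with 11650 bases between them, had 5, 1 and 1 counts in Sham, 6, 22 and 72 in injured VEGFR3fl/fl and 60, 45 and 42 in injured VEGFR3iLECko libraries. It was scarce, and it passed the filter through the injured groups. Its log2 fold change of 3.82 (standard error 0.93, edgeR adjusted p = 0.00624) was 2.60 without injured replicate 3, 4.93 without Sham replicate 1 and 2.87 with the Y-linked level as a covariate. Wnt2 had 84, 109 and 81 counts in Sham, 175, 127 and 241 in injured VEGFR3fl/fl and 122, 222 and 127 in injured VEGFR3iLECko libraries, and its log2 fold change after injury was 1.05 (standard error 0.29, edgeR adjusted p = 0.0118). All injured libraries lay above all Sham libraries for Wnt2. Wnt11, known for β-catenin-independent signalling, had 219, 242 and 199 counts in Sham, 352, 419 and 379 in injured VEGFR3fl/fl and 334, 308 and 236 in injured VEGFR3iLECko libraries. It rose by a log2 fold change of 0.87 (standard error 0.14, edgeR adjusted p = 0.000649).

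The other ligands tested were no DEGs. Wnt5a, the best known ligand of β-catenin-independent signalling, had 1914, 1904 and 1886 counts in Sham, 1350, 1799 and 2297 in injured VEGFR3fl/fl and 1948, 3153 and 2971 in injured VEGFR3iLECko libraries. Its Sham libraries lay within the range of the injured VEGFR3fl/fl libraries, and the log2 fold change was -0.0026 (standard error 0.19). Wnt5b (log2 fold change -0.47) and Wnt9a (0.49) had edgeR adjusted p-values of 0.0218 and 0.0392 and changed by less than 1.5-fold. Wnt4 (0.46) and Wnt7b (0.62) had adjusted p-values of 0.345 and 0.417. Of the untested ligands, Wnt9b had 0 to 8 counts in a library and Wnt1 and Wnt7a had 1 count in 1 library each.

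To compare ligands with each other, counts were divided by the length of the longest transcript and scaled to the same total in each library (approximate TPM, a measure of transcript abundance per length). On this scale the 15 ligands summed to 333 ± 26.9 (SD, n = 3) in Sham, 134 ± 28.7 (SD, n = 3) in injured VEGFR3fl/fl and 177 ± 20.0 (SD, n = 3) in injured VEGFR3iLECko irises. In Sham, Wnt10a made up 35.2% ± 3.73 of the sum (SD, n = 3), Wnt6 16.3% ± 0.660 and Wnt5a 13.3% ± 1.30. In injured VEGFR3fl/fl irises the order was another one, with Wnt5a at 26.5% ± 2.57 (SD, n = 3), Wnt5b at 14.2% ± 2.98 and Wnt11 at 11.7% ± 1.90, while Wnt10a held 6.67% ± 2.58 and Wnt6 3.91% ± 1.08. The shares of Wnt5b and Wnt11 there did not differ beyond their spread. In injured VEGFR3iLECko irises Wnt5a held 32.2% ± 5.32 (SD, n = 3) and Wnt16 15.6% ± 2.48. These are shares of a smaller sum, since the level of Wnt5a itself was 43.9 ± 1.43 approximate TPM in Sham, 36.0 ± 10.7 in injured VEGFR3fl/fl and 57.6 ± 14.7 in injured VEGFR3iLECko irises (SD, n = 3).

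**Figure D2:**
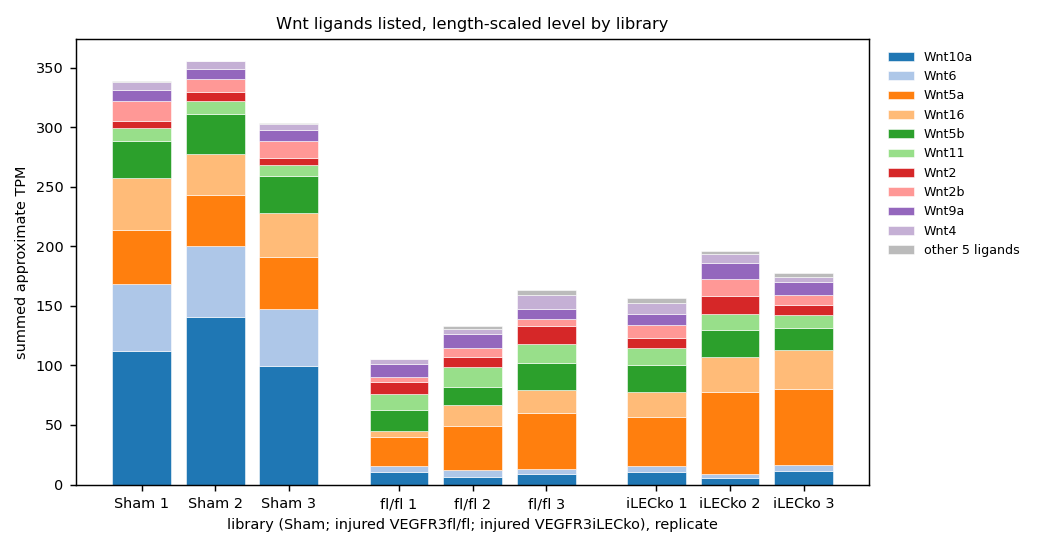
Summed approximate TPM of the Wnt ligands (y axis) in each of the 9 libraries (x axis), with each ligand as a coloured part of the bar. The Sham bars reach 303 to 356 and have Wnt10a as the tallest part, whereas the injured bars reach 106 to 196 and Wnt5a is the tallest part.

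Of the Frizzled receptors, which bind the ligands, Fzd1 rose and Fzd3, Fzd4 and Fzd8 fell. Fzd1 had 1667, 1405 and 1557 counts in Sham, 3828, 2336 and 3443 in injured VEGFR3fl/fl and 3730, 3247 and 3176 in injured VEGFR3iLECko libraries, all above Sham. Its log2 fold change after injury was 1.13 (standard error 0.17, edgeR adjusted p = 0.000452). Fzd4, which also serves as a receptor for the non-Wnt ligand norrin, had 808, 579 and 904 counts in Sham, 239, 274 and 337 in injured VEGFR3fl/fl and 429, 639 and 544 in injured VEGFR3iLECko libraries. The 2 injured groups did not overlap, and the VEGFR3iLECko libraries reached into the Sham range. Fzd4 fell by 1.36 on the log2 scale after injury (standard error 0.19, edgeR adjusted p = 0.000262). Fzd3, known for planar polarity and axon guidance, had 349, 265 and 318 counts in Sham, 127, 145 and 155 in injured VEGFR3fl/fl and 190, 219 and 199 in injured VEGFR3iLECko libraries, and it fell by 1.06 on the log2 scale (standard error 0.13, edgeR adjusted p = 8.78e-05). Fzd8 had 447 to 506 counts in Sham and 270 to 300 in injured VEGFR3fl/fl libraries, a fall by 0.66 on the log2 scale (edgeR adjusted p = 0.000219).

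Fzd2 rose by 0.55 on the log2 scale with an edgeR adjusted p of 0.00197, which is under 1.5-fold. Fzd5, Fzd6, Fzd7 and Fzd9 had log2 fold changes between -0.21 and 0.26 and overlapping groups. Fzd10 was not tested, with 5 to 15 counts in Sham and 2 to 6 in the injured libraries. Summed over the family, Frizzled transcripts stood at 248 ± 19.6 approximate TPM in Sham and 253 ± 26.2 in injured VEGFR3fl/fl irises (SD, n = 3), a difference within the spread of the libraries. Within that sum Fzd1 took 24.0% ± 0.951 in Sham and 41.1% ± 5.26 in injured VEGFR3fl/fl irises (SD, n = 3). The co-receptors were near their Sham levels. Lrp5 had 1242 to 1388 counts in Sham and 1239 to 1334 in injured VEGFR3fl/fl libraries (log2 fold change 0.025, standard error 0.075), and Lrp6 fell by 0.36 on the log2 scale (standard error 0.088, edgeR adjusted p = 0.00603), under 1.5-fold.

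The R-spondins, ligands of the Lgr receptors, changed in both directions. Rspo3, known from vascular remodelling, had 36, 19 and 34 counts in Sham, 72, 39 and 160 in injured VEGFR3fl/fl and 74, 86 and 42 in injured VEGFR3iLECko libraries. Its log2 fold change of 1.66 (standard error 0.51, edgeR adjusted p = 0.0186) rested much on injured replicate 3, without which it was 1.00 (adjusted p = 0.0780, the highest of all alternatives, the lowest being 0.00372), and the call was also lost without Sham replicate 2 (adjusted p = 0.0663). Rspo2 had 755, 879 and 816 counts in Sham, 645, 315 and 412 in injured VEGFR3fl/fl and 356, 287 and 317 in injured VEGFR3iLECko libraries, with injured VEGFR3fl/fl replicate 1 close to the Sham libraries. Rspo2 fell by 0.76 on the log2 scale (standard error 0.24, edgeR adjusted p = 0.0198). That call was lost without Sham replicate 2 (adjusted p = 0.0606) or injured replicate 3 (adjusted p = 0.0648). Without injured replicate 2 the log2 fold change of Rspo2 was -0.54, under 1.5-fold (adjusted p from 0.000158 to 0.0648 over all alternatives). Rspo4 was scarce, with 19, 10 and 21 counts in Sham, 1, 0 and 3 in injured VEGFR3fl/fl and 1, 2 and 0 in injured VEGFR3iLECko libraries. Scaled for depth, Sham held 11.9 times the Rspo4 counts of injured VEGFR3fl/fl (95% interval 4.37 to 45.4, counting error only) and 16.2 times those of injured VEGFR3iLECko libraries (95% interval 5.25 to 81.4). The edgeR adjusted p for Rspo4 was 0.00397 after injury, and the gene passed the filter on low counts through the Sham libraries. Rspo1 had 112 to 150 counts in Sham and 82 to 101 in injured VEGFR3fl/fl libraries (log2 fold change -0.46, edgeR adjusted p = 0.144).

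Of the Lgr receptors, Lgr4 and Lgr5 fell and Lgr6 rose. Lgr4, the broadly expressed member, had 1634, 1350 and 1677 counts in Sham, 503, 566 and 640 in injured VEGFR3fl/fl and 797, 1024 and 888 in injured VEGFR3iLECko libraries. The 3 groups did not overlap, and the log2 fold change after injury was -1.38 (standard error 0.12, edgeR adjusted p = 1.02e-05). Lgr6 had 6, 2 and 5 counts in Sham, 55, 57 and 53 in injured VEGFR3fl/fl and 62, 40 and 41 in injured VEGFR3iLECko libraries, which gave a log2 fold change of 3.70 (standard error 0.38, edgeR adjusted p = 3.34e-05). Lgr6 had a few counts in Sham and a narrow range in the 6 injured libraries, and it passed the filter on low counts through the injured groups. Lgr5, a Wnt target known from epithelial stem cells, had 204, 178 and 207 counts in Sham, 72, 66 and 172 in injured VEGFR3fl/fl and 186, 190 and 135 in injured VEGFR3iLECko libraries. Injured VEGFR3fl/fl replicate 3, the library of its group with the low Y-linked level, stood near Sham and within the VEGFR3iLECko range. The log2 fold change of Lgr5 was -0.86 (standard error 0.33, edgeR adjusted p = 0.0441), and the call was lost without any 1 of the other 8 libraries but remained without injured VEGFR3fl/fl replicate 3, with adjusted p-values from 0.000443 to 0.121 over all alternatives (0.0965, 0.0691 and 0.106 without Sham replicates 1, 2 and 3, 0.112 and 0.121 without injured replicates 1 and 2, and 0.0598, 0.0606 and 0.0502 without VEGFR3iLECko replicates 1, 2 and 3).

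Among the secreted antagonists, 3 fell and 3 rose after injury. Wif1, which binds the ligands, is at chr10:121034004-121100642 in GRCm38.p6, and it had 1240, 1366 and 1246 counts in Sham, 94, 51 and 72 in injured VEGFR3fl/fl and 82, 45 and 88 in injured VEGFR3iLECko libraries. Its mean fell from 72 ± 4.53 to 4.27 ± 1.36 CPM (SD, n = 3), and the log2 fold change of -4.07 (standard error 0.27, edgeR adjusted p = 2.21e-06) was the lowest among the members. The bases before its RefSeq start are shown for that reason (chr10:121033754-121034003, plus strand, GRCm38.p6).
Wif1: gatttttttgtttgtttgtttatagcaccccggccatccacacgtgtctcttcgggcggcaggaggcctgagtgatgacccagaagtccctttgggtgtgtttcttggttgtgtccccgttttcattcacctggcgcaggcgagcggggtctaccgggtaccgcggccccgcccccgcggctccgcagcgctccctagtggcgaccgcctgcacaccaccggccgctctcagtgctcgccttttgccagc

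Notum, the enzyme that removes the lipid of Wnt ligands and is itself a known target of the pathway, had 734, 851 and 757 counts in Sham, 132, 43 and 62 in injured VEGFR3fl/fl and 121, 86 and 55 in injured VEGFR3iLECko libraries. The Sham libraries lay far above all the others, with a log2 fold change after injury of -3.22 (standard error 0.40, edgeR adjusted p = 0.000112), or -3.85 without injured replicate 1. Dkk3, a divergent Dickkopf protein, was the most abundant member per length. It had 46841, 42652 and 47354 counts in Sham, 10385, 14647 and 15479 in injured VEGFR3fl/fl and 25093, 23216 and 17324 in injured VEGFR3iLECko libraries. The 3 groups did not overlap, and Dkk3 fell by 1.69 on the log2 scale after injury (standard error 0.17, edgeR adjusted p = 3.51e-05). On the approximate TPM scale Dkk3 made up 80.6% ± 0.964 of the antagonists in Sham and 56.1% ± 15.5 in injured VEGFR3fl/fl irises (SD, n = 3).

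The antagonists that rose belong to the Sfrp family, whose members carry a Frizzled-like domain that binds ligands. Sfrp4 had 26, 33 and 33 counts in Sham, 418, 1157 and 5281 in injured VEGFR3fl/fl and 3576, 3414 and 2243 in injured VEGFR3iLECko libraries. Its log2 fold change of 6.26 (standard error 0.96, edgeR adjusted p = 0.000417) was the largest among the members, with all injured libraries above Sham, and it was 4.76 without injured replicate 3 and 5.05 with the Y-linked level as a covariate. Sfrp2 had 58, 82 and 74 counts in Sham, 4454, 69 and 1396 in injured VEGFR3fl/fl and 1028, 438 and 438 in injured VEGFR3iLECko libraries. Injured VEGFR3fl/fl replicate 2 lay within the Sham range, so the groups overlapped although the log2 fold change was 4.88 (standard error 1.19, edgeR adjusted p = 0.00626), or 3.39 without injured replicate 1. That replicate also stood apart in other genes, with 127 counts of Dpt and 1522 of Ccl21a against 19 and 79 in replicate 2 and 5 and 0 in replicate 3, and the part of this in the Sfrp2 value was not tested. Frzb had 84, 77 and 52 counts in Sham, 455, 489 and 435 in injured VEGFR3fl/fl and 263, 462 and 570 in injured VEGFR3iLECko libraries. Unlike Sfrp2 and Sfrp4 it had a narrow range in injured VEGFR3fl/fl libraries, with a log2 fold change of 2.76 (standard error 0.28, edgeR adjusted p = 3.23e-05).

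The other antagonists were no DEGs with all libraries. Sfrp1 had 7898, 7415 and 8023 counts in Sham, 3079, 2820 and 7612 in injured VEGFR3fl/fl and 6869, 7992 and 5639 in injured VEGFR3iLECko libraries. Injured VEGFR3fl/fl replicate 3, the library of its group with the low Y-linked level, lay within the Sham range and also within the VEGFR3iLECko range. The other 2 lay far below both, so the log2 fold change of -0.73 had a standard error of 0.32 and an edgeR adjusted p of 0.0788. Without replicate 3 Sfrp1 had a log2 fold change of -1.31 and passed (adjusted p = 0.000136), as it did with DESeq2, library size scaling or the Y-linked covariate. The highest adjusted p over all alternatives was 0.209. Dkk2 (log2 fold change 0.21) and Dkk1 (0.85) had overlapping groups. Sfrp5 had 28 to 37 counts in Sham and 5 to 18 in injured VEGFR3fl/fl libraries (log2 fold change -1.31, edgeR adjusted p = 0.0531), and it passed in 6 of 18 alternatives. Dkk4 was not tested, with 1 count in 1 library. Antagonists other than Dkk3 summed to 526 ± 14.0 approximate TPM in Sham and 457 ± 217 in injured VEGFR3fl/fl irises (SD, n = 3), a difference within the spread of the injured libraries.

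**Figure D3:**
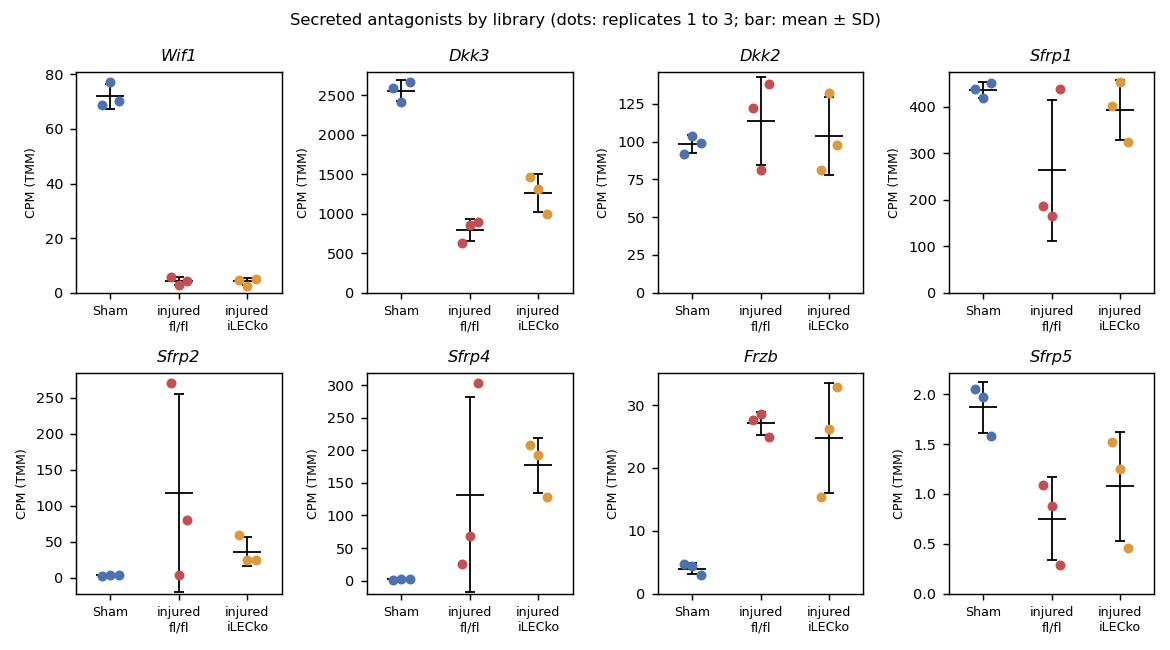
CPM on the TMM scale (y axis) of 8 secreted antagonists by group (x axis), with 1 dot per library and bars for the mean ± SD of 3 libraries. Wif1 falls from 72 to 4.27 CPM with tight groups, whereas Sfrp2, Sfrp4 and Sfrp1 spread widely over the injured VEGFR3fl/fl libraries.

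The readouts Axin2, Lef1 and Tcf7 all fell. Axin2 encodes a scaffold of the β-catenin destruction complex and is a widely used target gene of the pathway. It had 1912, 1705 and 1669 counts in Sham, 259, 334 and 452 in injured VEGFR3fl/fl and 471, 559 and 472 in injured VEGFR3iLECko libraries. Its mean was 98.7 ± 6.32 CPM in Sham and 20.4 ± 5.17 CPM in injured VEGFR3fl/fl irises (SD, n = 3), a log2 fold change of -2.27 (standard error 0.16, edgeR adjusted p = 3.87e-06). Lef1, a factor that acts with β-catenin, had 466, 458 and 372 counts in Sham, 63, 71 and 74 in injured VEGFR3fl/fl and 95, 86 and 82 in injured VEGFR3iLECko libraries. The 3 groups did not overlap, and Lef1 fell by 2.57 on the log2 scale (standard error 0.13, edgeR adjusted p = 6.54e-07). Tcf7, a second factor of the same family, had 928, 918 and 869 counts in Sham, 196, 327 and 344 in injured VEGFR3fl/fl and 396, 414 and 375 in injured VEGFR3iLECko libraries. It fell by 1.58 on the log2 scale (standard error 0.16, edgeR adjusted p = 3.78e-05).

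Lef1 and Tcf7 are also factors of T cells. All 9 T cell markers tested, of 10 listed, rose after injury, and their summed level went from 7.12 to 7.92 CPM in Sham to 53.2 to 75.5 CPM in injured VEGFR3fl/fl and 34.0 to 52.5 CPM in injured VEGFR3iLECko libraries, while Lef1 and Tcf7 fell. Pigment cell markers moved with the genes that fell, with 7 of 7 downregulated, as did the summed smooth muscle and pericyte markers, which went from 7970 to 10167 CPM in Sham to 2495 to 4917 CPM in injured VEGFR3fl/fl libraries with 4 of 10 downregulated and 3 upregulated. Fibroblast markers moved with the genes that rose, from 5185 to 5631 CPM in Sham to 16196 to 23334 CPM in injured VEGFR3fl/fl libraries, with 7 of 10 upregulated and 1 downregulated. Summed macrophage markers went from 361 to 374 CPM in Sham to 3329 to 3685 CPM in injured VEGFR3fl/fl libraries (10 of 10 upregulated) and blood endothelium markers from 479 to 529 CPM to 1576 to 1592 CPM (7 of 8 upregulated). Schwann cell markers went from 280 to 344 CPM to 118 to 128 CPM (5 of 7 downregulated and 1 upregulated) and ciliary body markers from 319 to 390 CPM to 85.7 to 149 CPM (3 of 6 downregulated), and striated muscle markers from 58.2 to 70.3 CPM to 5.46 to 8.07 CPM (2 of 6 downregulated and 1 upregulated). Their part in the results was not tested. Corneal and surface epithelium markers summed to 69.4 and 40.0 CPM in Sham replicates 1 and 2 and to 4.73 CPM in Sham replicate 3, within the 4.07 to 7.12 CPM of the injured VEGFR3fl/fl libraries. The markers on this list did not move together. Krt5 had 328, 148 and 7 counts in Sham replicates 1, 2 and 3, whereas Krt12 had 31, 31 and 25 and Trp63 had 16 in each. In injured VEGFR3fl/fl libraries Krt12 had 3, 10 and 6 counts and Trp63 had 21, 2 and 10. In Sham replicate 3, Wnt10a, Wnt6, Wif1 and Axin2 stood at 1509, 598, 1246 and 1669 counts, far above the injured libraries. The part of corneal and surface epithelium in the values of these and the other members was not tested.

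**Figure D4:**
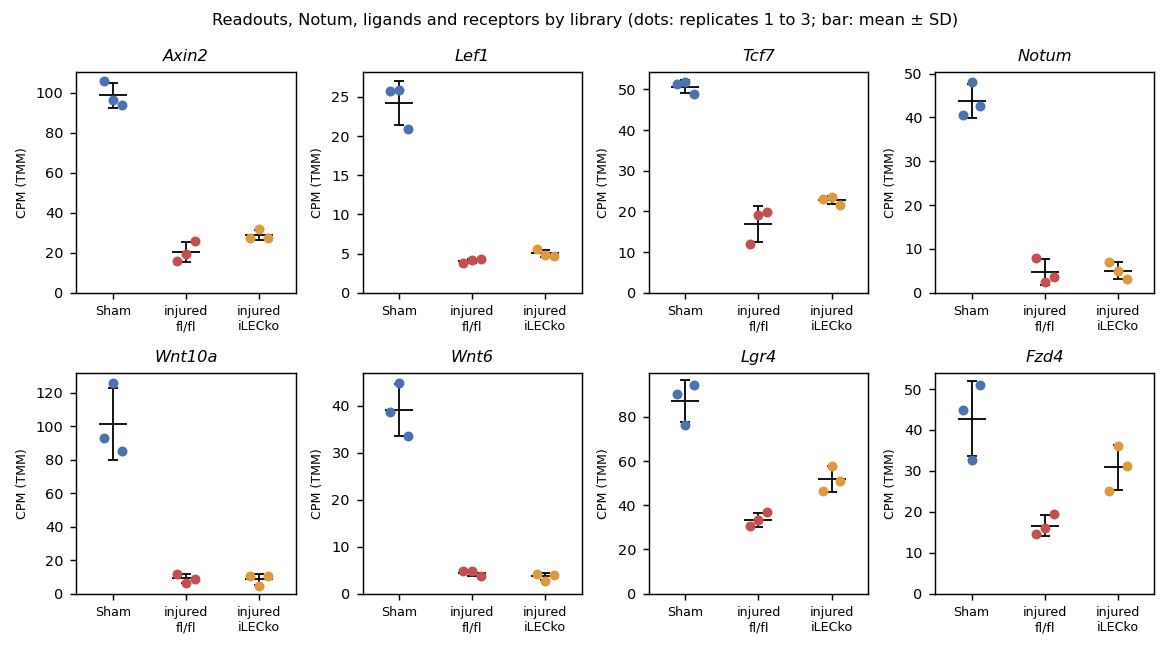
CPM on the TMM scale (y axis) of the 3 readouts, Notum, Wnt10a, Wnt6, Lgr4 and Fzd4 by group (x axis), with 1 dot per library and bars for the mean ± SD of 3 libraries. Sham stands apart in the first 6 panels, with Axin2 at 98.7 CPM against 20.4 and 28.8 CPM, and in the Lgr4 panel the 3 groups form 3 steps at 87.1, 33.5 and 51.9 CPM.

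RefSeq promoter windows, from 250 bases before to 50 after a start site, were available for 31 of the 48 members (38 windows). The heptamer CTTTGAA, of the kind that TCF/LEF factors are known to bind, was searched on both strands. The variant CTTTGAT was searched with it, as was CTTTGTA in its turn, and CTTTGTT was the last of these letters searched. Any of the 4 heptamers occurred in 5 member windows (13.2%), 1 each of Dkk1, Fzd7, Lef1, Wnt11 and Wnt5b, against 16.9% of all 32851 windows. A stretch each of the readouts Axin2 and Lef1 is shown, and the 2 windows of the readout Tcf7 held no heptamer. The Axin2 stretch (chr11:108920099-108920348, plus strand, GRCm38.p6) lies inside the gene's annotated span and holds none of these letters. The Lef1 stretch (chr3:131156044-131156293, plus strand, GRCm38.p6) precedes the last of the gene's RefSeq starts and is shown because it is the 1 of 4 Lef1 windows that holds a heptamer, and its capitals mark a heptamer, read on the other strand as CTTTGTA, whose first base is at position -147 from the start.
Axin2: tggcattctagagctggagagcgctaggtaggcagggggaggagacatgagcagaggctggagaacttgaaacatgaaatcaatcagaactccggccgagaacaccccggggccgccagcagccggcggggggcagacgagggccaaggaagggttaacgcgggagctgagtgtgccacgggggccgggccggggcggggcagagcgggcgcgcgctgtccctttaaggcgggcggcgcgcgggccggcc
Lef1: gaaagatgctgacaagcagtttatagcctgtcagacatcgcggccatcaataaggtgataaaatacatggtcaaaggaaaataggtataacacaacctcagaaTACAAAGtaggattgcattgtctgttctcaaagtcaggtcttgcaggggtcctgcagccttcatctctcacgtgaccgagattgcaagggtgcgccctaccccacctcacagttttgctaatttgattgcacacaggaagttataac

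Between the injured groups, the question was whether irises labelled VEGFR3iLECko differed from injured VEGFR3fl/fl irises. Lgr4 was the single DEG among the 43 members tested, and it was upregulated. The background over all genes tested was 0.573% upregulated and 0.466% downregulated, or 1.04% in either direction. No member was downregulated by edgeR (0 of 43) or by DESeq2 (0), while 13 members had an unadjusted p under 0.05 in either direction (30.2%, against 24.5% of all genes tested). The values below share the injured VEGFR3fl/fl libraries with the comparison to Sham, so the changes of a gene in the 2 comparisons are not independent. The median log2 fold change of the 43 members was 0.075, beside -0.0099 over all genes tested.

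Lgr4 was higher in all 3 VEGFR3iLECko libraries (797, 1024 and 888 counts) than in all 3 injured VEGFR3fl/fl libraries (503, 566 and 640 counts). The log2 fold change was 0.63 (standard error 0.11, edgeR adjusted p = 0.0407). The size stayed between 0.54 and 0.70 when single libraries were left out, and the adjusted p missed the threshold in 7 of these 9 fits: 0.0763 and 0.0755 without Sham replicates 1 and 3, 0.0671 and 0.0568 without injured VEGFR3fl/fl replicates 1 and 2, and 0.0607, 0.145 and 0.0832 without VEGFR3iLECko replicates 1, 2 and 3. With the Y-linked level as a covariate the log2 fold change of Lgr4 was 0.51 (adjusted p = 0.398), with only the 6 libraries compared the adjusted p was 0.105, and with DESeq2 it was 0.0002, the limits of the range over all alternatives being 0.0002 and 0.398.

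Every VEGFR3iLECko library was above every injured VEGFR3fl/fl library for 10 of the 43 members and below for 2, against a background of 12.4% above and 14.3% below (26.7% in all). The 10 included all 3 readouts. Axin2 was at 28.8 ± 2.5 CPM in VEGFR3iLECko and 20.4 ± 5.17 CPM in injured VEGFR3fl/fl irises (SD, n = 3), with a log2 fold change of 0.49 (standard error 0.16, edgeR adjusted p = 0.116). Without injured VEGFR3fl/fl replicate 3 it was 0.71 and passed (adjusted p = 0.0339, where other alternatives reached 0.813). Lef1 differed by a log2 fold change of 0.31 (standard error 0.13, edgeR adjusted p = 0.202) and Tcf7 by 0.42 (standard error 0.16, edgeR adjusted p = 0.165), so none of the readouts passed with all libraries. Their values in VEGFR3iLECko irises were below every Sham library.

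Of the genes whose injured groups did not overlap, Fzd4, Wnt16, Wnt2b and Dkk3 differed by more than Lgr4, with larger errors. The log2 fold change was 0.89 for Fzd4 (standard error 0.19, edgeR adjusted p = 0.0579), 0.67 for Dkk3 (standard error 0.17, edgeR adjusted p = 0.0732) and 0.76 for Wnt2b (standard error 0.22, edgeR adjusted p = 0.0954). With DESeq2 these 3 genes and Lgr4 were upregulated DEGs (4 of 43 members, against a DESeq2 background of 2.43% upregulated and 1.97% downregulated), with adjusted p-values of 0.00114 for Fzd4, 0.00252 for Dkk3 and 0.0244 for Wnt2b. Over the alternatives the adjusted p reached 0.494 for Fzd4, 0.583 for Dkk3 and 0.624 for Wnt2b. Wnt16 differed by 0.89 on the log2 scale (standard error 0.39, edgeR adjusted p = 0.202), with injured VEGFR3fl/fl replicate 1 at 111 counts apart from the other libraries. Fzd3 differed by 0.48 (standard error 0.13, edgeR adjusted p = 0.0779) and Fzd8 by 0.21 (edgeR adjusted p = 0.195).

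Lower in every VEGFR3iLECko library were Wnt11 and Lrp5. The log2 fold change was -0.42 for Wnt11 (standard error 0.14, edgeR adjusted p = 0.126) and -0.15 for Lrp5 (standard error 0.075, edgeR adjusted p = 0.240). The genes with the largest falls after injury did not differ beyond the spread of the libraries between the injured groups. Wif1 differed by -0.047 on the log2 scale (standard error 0.28), Wnt10a by -0.071 (standard error 0.32), Wnt6 by -0.27 (standard error 0.20) and Notum by 0.10 (standard error 0.41). With errors of this size a moderate difference could have been missed. The errors were wide for Sfrp2 and Sfrp4, with log2 fold changes of -1.69 (standard error 0.99) and 0.42 (standard error 0.69). The summed ciliary body markers were higher in every library labelled VEGFR3iLECko (227 to 258 CPM against 85.7 to 149 CPM), with 0 of 6 upregulated. Zic1, Zic2 and Aqp4 were higher in each such library, with log2 fold changes of 0.82, 1.13 and 1.60. Atp6v1c2, Opcml and Cacna1e were not, with -1.17, -0.29 and -0.00042. The summed macrophage markers were lower in each library labelled VEGFR3iLECko (2216 to 2405 CPM against 3329 to 3685 CPM), with 5 of 10 downregulated and 1 upregulated. The summed pigment cell markers overlapped between the groups (5053 to 7113 CPM against 3371 to 5810 CPM). The part of these cell types in the values of the members was not tested.

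Against Sham, injured VEGFR3iLECko irises had 7 upregulated and 11 downregulated members, beside a background of 19.7% and 15.0% over all genes tested (34.8% in either direction). The 7 were Frzb, Fzd1, Lgr6, Sfrp2, Sfrp4, Wnt10b and Wnt2, and the 11 were Axin2, Dkk3, Lef1, Lgr4, Notum, Rspo2, Rspo4, Tcf7, Wif1, Wnt10a and Wnt6. This comparison uses the same Sham libraries as that of the injured VEGFR3fl/fl irises. Y-linked genes summed to 51.1 to 167 CPM in Sham and to 0.736 to 1.11 CPM in the VEGFR3iLECko libraries. In this comparison the Y-linked level therefore cannot be told apart from injury and genotype. Axin2 had a log2 fold change of -1.78 here and -2.27 in injured VEGFR3fl/fl irises, Dkk3 -1.02 and -1.69, and Lgr4 -0.75 and -1.38. Wif1 had -4.12 and -4.07, and Wnt10a -3.54 and -3.47. Fzd3, Fzd4, Fzd8, Lgr5, Wnt16, Wnt2b, Wnt11 and Rspo3 passed in injured VEGFR3fl/fl irises and not here, which does not show that the groups differ, since of all members only Lgr4 passed the direct test.

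The rest of the pathway was read from a list of 84 genes that act in Wnt secretion, reception, transduction, transcription or planar polarity or are common targets, of which 80 were tested. After injury 18 were upregulated and 15 downregulated DEGs (41.3%, against 39.7% of all genes tested), a share near the background. Of 16 common targets, 7 rose and 7 fell. Nkd1, Sp5 and Tnfrsf19 had the largest falls. Nkd1, an inducible inhibitor of Dishevelled, had 2117, 2700 and 2143 counts in Sham and 255, 297 and 290 in injured VEGFR3fl/fl libraries (log2 fold change -2.98, standard error 0.15, edgeR adjusted p = 5.87e-07). Sp5, a transcription factor induced by β-catenin, had 80, 78 and 85 counts in Sham and 6, 12 and 12 in injured VEGFR3fl/fl libraries (log2 fold change -2.94, standard error 0.33, edgeR adjusted p = 6.27e-05). Tnfrsf19, a receptor gene known as a target, had 2090, 2200 and 2219 counts in Sham and 271, 350 and 572 in injured VEGFR3fl/fl libraries (log2 fold change -2.39, edgeR adjusted p = 1.54e-05).

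Other listed targets rose, several of which also respond to other pathways. Ccn5, a matricellular protein gene, had 8, 7 and 11 counts in Sham and 3069, 1095 and 1505 in injured VEGFR3fl/fl libraries (log2 fold change 7.83, standard error 0.57, edgeR adjusted p = 4.35e-06). Ccn4 of the same family had 123, 81 and 116 counts in Sham and 1230, 1797 and 3235 in injured VEGFR3fl/fl libraries (log2 fold change 4.35, edgeR adjusted p = 7.26e-06). The growth regulator Myc had 51, 55 and 45 counts in Sham and 151, 309 and 339 in injured VEGFR3fl/fl libraries (log2 fold change 2.46, edgeR adjusted p = 6.83e-05). Fosl1, an AP-1 subunit, had 4, 1 and 0 counts in Sham and 1, 26 and 40 in injured VEGFR3fl/fl libraries, which overlapped (log2 fold change 3.70, edgeR adjusted p = 0.0162, up to 0.0556 over the alternatives). Ccn5 and Fosl1 were scarce in Sham and passed the filter on low counts through the injured groups. Draxin, known from axon guidance, also rose and was listed as a secreted antagonist, not as a common target. It had 17, 17 and 14 counts in Sham and 112, 357 and 971 in injured VEGFR3fl/fl libraries (log2 fold change 4.95, edgeR adjusted p = 0.000411).

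**Figure D5:**
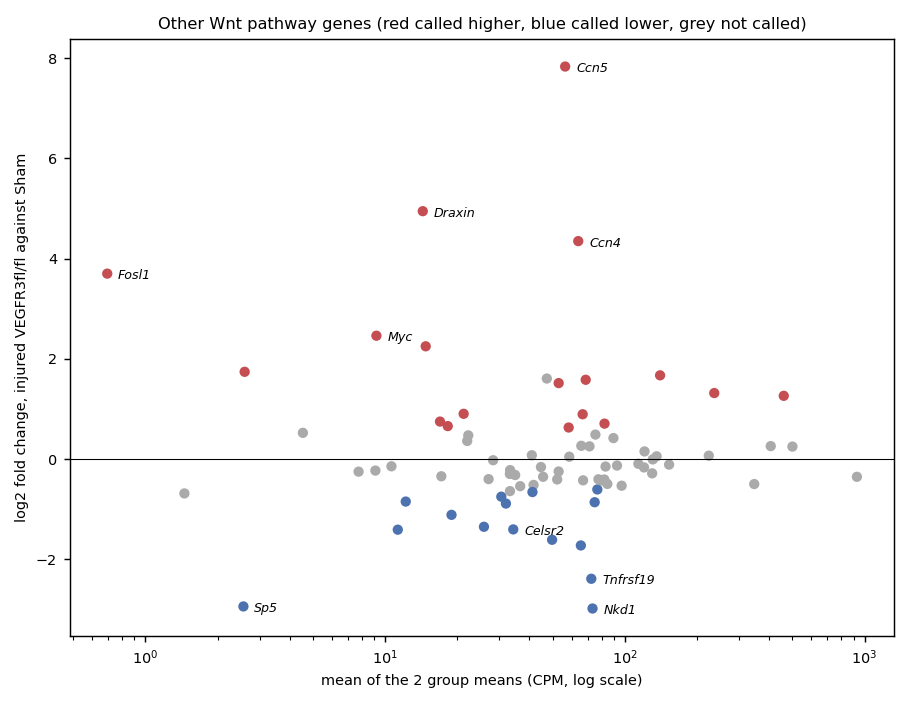
Log2 fold change of injured VEGFR3fl/fl against Sham (y axis) against the mean of the 2 group means in CPM (x axis, log scale) for 80 other genes of the pathway. Labels mark the 8 genes with the largest changes among those coloured, from Ccn5 at 7.83 to Nkd1 at -2.98, and Celsr2, the one gene that passed between the injured groups.

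Between the injured groups, 1 of the 80 genes was upregulated and 0 were downregulated by edgeR, against the same background of 0.573% and 0.466%, and 26 had an unadjusted p under 0.05. With DESeq2, 4 of the 80 were DEGs in either direction, against a DESeq2 background of 4.4%. The gene that passed was Celsr2, a cadherin of planar polarity. It had 976, 747 and 937 counts in Sham, 302, 329 and 328 in injured VEGFR3fl/fl and 518, 585 and 460 in injured VEGFR3iLECko libraries. Like Lgr4 it formed 3 groups without overlap, with a log2 fold change of 0.67 between the injured groups (standard error 0.12, edgeR adjusted p = 0.0384, from 0.0002 to 0.309 over the alternatives).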

How the data were processed

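RNA of irises was sequenced as single-end reads of 50 bases in 9 libraries, 3 per group. The authors filtered the reads, aligned them with HISAT2 2.0.4 and Bowtie2 2.2.5 to the mouse genome (mm10 per the submitters' processing notes) and deposited an estimated count per gene for each library, listed by symbol and NCBI Gene ID and not normalized. The counting program and its annotation are not given in the sources used here. Values that were not whole made up 9.83% to 10.3% of a library. A combined table with the same values and averages of groups was not used. Groups came from the labels' titles and descriptions.

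In R 4.3.3, counts were first rounded. edgeR 4.0.16 filterByExpr kept 15010 of 18349 genes, TMM factors lay between 0.900 and 1.09, and all 9 libraries were fitted by the quasi-likelihood method with group as the only term. P-values were adjusted by Benjamini-Hochberg over all genes tested, and DEGs had adjusted p under 0.05 and a change over 1.5-fold, the thresholds of the study, which used a TPM filter and DESeq2. Alternatives were DESeq2 1.42.0, RLE, upper quartile and library size scaling, no filter or at least 1 CPM in 3 libraries, no fold threshold or 2-fold, the 6 libraries compared, a replicate block, the Y-linked level as a covariate and leaving out each of the 9 libraries. The procedure was tested on simulated data with planted changes larger than the Lgr4 difference between the injured groups, so that test does not cover changes of that size.

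Approximate TPM used the longest GENCODE M21 transcript, found for 96.1% of the genes and all 48 members. Positions and promoter windows are RefSeq's on GRCm38.p6. Values per library are given for the 25 DEGs with the largest absolute change after injury, for genes called between the injured groups and for Axin2, Lef1, Tcf7 and Notum, and of the other pathway genes for the 8 largest. Other members are described more briefly, and Wnt5a and Sfrp1 were added after their values were seen. Members and lists were chosen with earlier results of these data known. Replicates of a group differed by more than counting noise (chi-square per degree of freedom 5.12 to 77.6). Intervals cover counting error only.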

Additional observations from a re-analysis of the deposited data

How the results depend on the processing

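The Y-linked level differed between most libraries of the injured groups. After injury the counts of members stayed at 8 to 11 upregulated and 13 to 21 downregulated over all alternatives, and at 9 to 10 and 15 to 18 with each library left out. Of the values after injury of the 25 DEGs with the largest changes among the members, 431 kept direction and side of the threshold, 17 (of Lgr5, Rspo2, Rspo3 and Wnt16) no longer passed and 0 turned. Of the uncalled members, Fzd7, Fzd9, Lrp5, Wnt4 and Wnt5a changed sign in some fits with 1 library left out. With library size scaling alone the change after injury had a median over all genes of -0.16 on the log2 scale (0.010 with TMM), and there were 9 upregulated and 21 downregulated members. With no fold change threshold VEGFR3iLECko irises had 11 upregulated members against Sham. At the 1.5-fold threshold they had 5 to 8 with each library left out.

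Between the injured groups the 1 upregulated member became 0 with library size scaling, the 6 libraries compared, the replicate block, the Y-linked covariate or a 2-fold threshold, 4 with DESeq2 and 0 to 5 with each library left out. Without injured VEGFR3fl/fl replicate 3 the 5 were Axin2, Lgr4, Lgr5, Sfrp1 and Sfrp4. No alternative gave a downregulated member. For the other pathway genes, the 33 DEGs after injury became 50 without a fold threshold and 21 at 2-fold, and the 1 DEG between the injured groups became 3 with library size scaling or no fold threshold, 4 with DESeq2, 0 with the 6 libraries, the replicate block, the Y-linked covariate or a 2-fold threshold, and 0 to 5 with each library left out. A stricter threshold gives fewer DEGs by its construction, and for the other changes the cause was not tested.

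Differences between the injured groups that turned were all uncalled. With the Y-linked covariate, Fzd1 was at -0.0082, Sfrp4 at -0.71, Wif1 at 0.018 and Wnt10b at -0.57, and Wif1 was at 0.021 with library size scaling. With single libraries left out, Frzb ranged from -0.38 to 0.12, Fzd1 from -0.14 to 0.22, Notum from -0.22 to 0.73, Rspo3 from -0.81 to 0.22, Rspo4 from -1.24 to 0.80, Sfrp4 from -0.063 to 1.93, Wif1 from -0.25 to 0.22 and Wnt10a from -0.26 to 0.22.

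Same-numbered replicates showed no clear shared deviation. Correlations over genes were -0.18, -0.24 and 0.020 between Sham and injured VEGFR3fl/fl, and 0.13, -0.39 and -0.057 between the injured groups. Between Sham and VEGFR3iLECko they were 0.096, 0.096 and 0.014. Deviations from a mean of 3 libraries depend on each other, so these values give no sign of pairing but cannot exclude it. With the replicate block, 9 members were upregulated and 17 downregulated after injury and 0 between the injured groups, where Lgr4 had an adjusted p of 0.0780 (0.0002 to 0.398 over all alternatives).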
